A study of Homo sapiens with 6 samples.

Results

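The SLC25 family is the family of mitochondrial carriers, and its members were taken as every gene whose symbol is SLC25A followed by a number. This gave 48 of the 38100 genes counted. Of these, 42 had at least 10 counts in at least 3 of the 6 samples and were tested, and 6 did not. The samples were HK2 cells, a widely used immortalised line from the human proximal tubule, labelled wild type. They carried a control adenovirus in the group labelled AdCtrl+TGF (3 samples) or an adenovirus for SIRT4 in the group labelled AdSirt4+TGF (3 samples), here called AdCtrl and AdSirt4. All 6 samples were stimulated with TGF-β1, a cytokine that drives fibrotic responses in tubular cells, so no sample shows the carriers without it. The TGF-β1 dose and duration for these samples are not given in the sources used here. SIRT4 is a sirtuin that under normal conditions lies in the mitochondrial matrix. The study reports that after TGF-β1 treatment it moved to the cytoplasm and also to the nucleus. The comparison made here asks whether SIRT4 overexpression changed the mRNA of the carriers that load and empty the matrix.

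Most mitochondrial carriers sit in the inner membrane, which is otherwise closed to charged metabolites. Such a carrier is built from repeats of the same membrane unit and switches between a state open to the cytosol and a state open to the matrix. In many of them one substrate is moved against another. Through them ADP enters and ATP leaves, phosphate, citrate, malate, glutamate and aspartate cross, and cofactors made outside reach the matrix enzymes. Proximal tubular cells in the kidney live mainly on mitochondrial oxidation and depend on this exchange. The carriers are encoded in the nucleus, made in the cytosol and brought in by the small TIM chaperones and the TIM22 complex.

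The repeats carry a signature of 6 codons, a proline codon, any codon, a codon for an acidic residue, any pair of codons and a codon for a basic residue. It was searched in frame on the coding strand of 1 GENCODE release 29 transcript per gene. Of 48 members, 30 held it at least 3 times (62.5%), 27 of them exactly 3 times, 8 held it 2 times, 6 held it 1 time and 4 (SLC25A46, SLC25A51, SLC25A52 and SLC25A53) had no match. Among protein-coding genes outside the family with a coding part of 822 to 2034 bases, 0.631% held it at least 3 times and 25.8% at least 1 time. The first match is shown for the members on which the results below turn, 5′ to 3′ on the coding strand, with the proline, acidic and basic codons in capitals.
SLC25A34, chr1:15736561-15736578, plus strand, exon 1: CCCctgGAGgtggtgAAG
SLC25A35, chr17:8294736-8294753, minus strand, exon 1: CCCctgGAGgtggtgAAG
SLC25A30, chr13:45409049-45409066, minus strand, exon 3: CCAattGATttaaccAAG
SLC25A25, chr9:128103810-128103827, plus strand, exon 6: CCCctgGACaggctcAAG
SLC25A12, chr2:171813457-171813474, minus strand, exon 11: CCTataGATctggtgAAG
SLC25A4, chr4:185143454-185143471, plus strand, exon 1: CCCatcGAGagggtcAAA
SLC25A5, chrX:119468597-119468614, plus strand, exon 1: CCCatcGAGcgggtcAAG
SLC25A6, chrX:1391911-1391928, minus strand, exon 1: CCGatcGAGcgggtcAAG
SLC25A3, chr12:98595528-98595545, plus strand, exon 3: CCTctaGATctggttAAA
All positions are on GRCh38. SLC25A34 and SLC25A35 had the same 18 bases here, inside the longest stretch they shared, cccctggaggtggtgaagac, which was 20 bases long. Over their whole coding parts 68.0% of the aligned bases were identical. The adenine nucleotide translocases SLC25A5 and SLC25A6 were identical at 78.7% of aligned coding bases and shared no run longer than 29 bases. The annotation also named 40 processed or other pseudogenes of 14 members, 9 of them of SLC25A5 and 6 of SLC25A6, and the longest run that either of these shared with its pseudogenes was 68 bases. Over the 14 members this run went from 14 bases for SLC25A18 to 121 for SLC25A38, with 118 for SLC25A51 and 82 for SLC25A15. The pseudogenes were not among the genes counted and were not analysed here. Reads that could be placed on a carrier or on its pseudogene leave the levels of those 14 members uncertain, to differing degrees.

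The libraries held 41537353 to 85684748 counts, and AdSirt4 replicate 1 was the smallest. SIRT4 itself had 31, 47 and 57 counts in the AdCtrl samples and 1996, 7995 and 6827 counts in AdSirt4 replicates 1, 2 and 3, so every AdSirt4 sample carried the overexpressed gene and replicate 1 carried the least (51.2 against 92.7 and 84.0 CPM, counts scaled to library size by TMM). The epithelial keratins KRT8 and KRT18 lay at 374 to 498 and 200 to 282 FPKM (fragments per kilobase of exon, scaled to library size) and GGT1, a brush-border enzyme, at 65.7 to 83.5 FPKM. The proximal tubule markers LRP2, CUBN, AQP1 and SLC34A1 reached at most 0.308 FPKM in any sample. The leukocyte, endothelial, podocyte and thick-limb markers PTPRC, PECAM1, NPHS1 and UMOD reached at most 0.0480 FPKM. The samples were unsorted bulk RNA, in which fewer cells of a type and less RNA per cell cannot be told apart.

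Most of the family was expressed, over a range of more than 3 orders of magnitude per unit of length. In mean FPKM over the 6 samples 4 members lay at 50 or more, 18 between 10 and 50, 15 between 1 and 10 and 11 under 1. The highest were SLC25A5 and SLC25A6, the adenine nucleotide translocases that exchange ADP for ATP, with 245 ± 13.3 and 210 ± 8.49 FPKM in AdCtrl (SD, n = 3). SLC25A1, the citrate carrier, followed at 90.7 ± 5.12 FPKM and SLC25A3, the phosphate carrier, at 81.3 ± 5.29 FPKM. In each of these adjacent comparisons the 3 AdCtrl samples of the higher gene lay above those of the lower gene, by 0.101 FPKM in the closest, SLC25A1 against SLC25A3. Of the 47 pairs of neighbours in the order, 26 overlapped in AdCtrl and 39 overlapped over all 6 samples, so most of the order below the leading members does not exceed the spread. The deposited counts and FPKM implied a median length over the samples of 6872 bases for SLC25A3, against 1086 coding bases. Its level per transcript is therefore not fixed by this scale. SLC25A4, the translocase of heart and muscle, was at 4.47 ± 0.536 FPKM in AdCtrl, and it made up 0.971% ± 0.0885 of the FPKM of the 3 translocases. This share depends on the implied lengths, 5060 bases for SLC25A4, 1494 for SLC25A5 and 1659 for SLC25A6, with 894 coding bases in each. Without division by length, the AdCtrl means were 22.4 CPM for SLC25A4, 362 for SLC25A5 and 345 for SLC25A6.

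**Figure D1:**
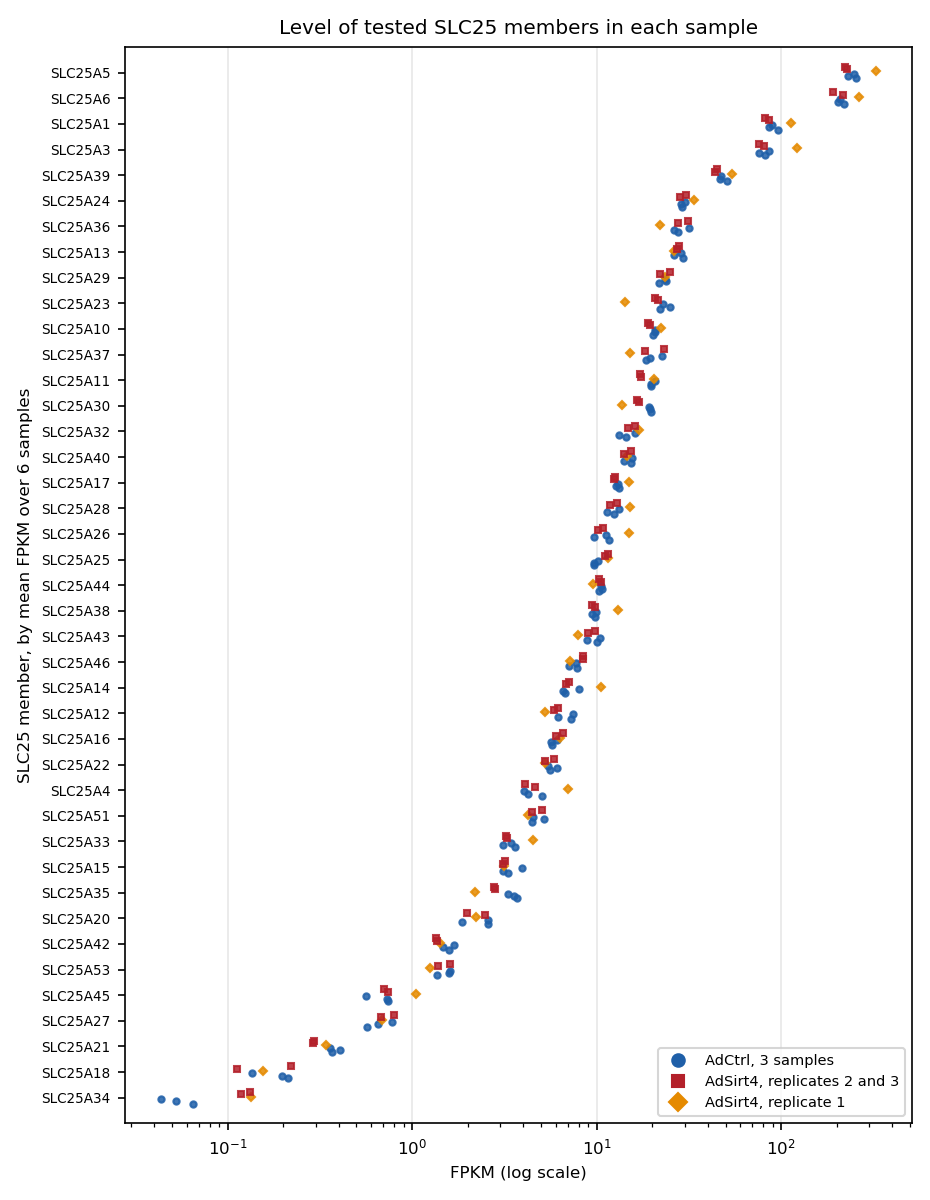
FPKM of 41 of the 42 tested SLC25 members (log axis) in each of the 6 samples, ordered by the mean over all samples. SLC25A5 and SLC25A6 lead, SLC25A34 and SLC25A18 are the lowest, and AdSirt4 replicate 1 stands to the right for the leading 4.

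The 6 members outside the test were close to absent. They were SLC25A31 (the translocase of testis), SLC25A41 (an ATP-Mg carrier), SLC25A2 (an ornithine carrier), SLC25A47 (a liver carrier), SLC25A48 and SLC25A52 (an NAD carrier), and none had more than 6 counts in any sample. SLC25A41 was the nearest to the threshold, with 3, 4 and 5 counts in AdCtrl and 6, 2 and 2 in AdSirt4. SLC25A31 had 2, 2 and 0 counts in AdCtrl and 0 in every AdSirt4 sample. A count of 0 allows up to 3 counts, or 0.0350 to 0.0722 CPM depending on the library, and counting error alone is covered by this limit. Just inside the threshold were SLC25A34, with 13, 9 and 8 counts in AdCtrl and 21, 37 and 37 in AdSirt4, and SLC25A18, with 29, 22 and 17 against 17, 25 and 44. SLC25A34 passed through its AdSirt4 samples and 1 AdCtrl sample, so its passing the filter was not independent of its difference.

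Compared with AdCtrl, no SLC25 member passed an adjusted p under 0.05 in AdSirt4 (edgeR quasi-likelihood test with Benjamini-Hochberg adjustment over 18068 genes, of which 2, or 0.0111%, passed). The members' adjusted p ranged from 0.507 to 0.966. At an unadjusted p under 0.05, 2 of 42 members were higher in AdSirt4, against 4.36% of all genes, and 3 were lower, against 3.41% of all genes. Together these are 11.9% of the members and 7.77% of all genes. The members that were higher include SLC25A34, which passed the count filter mainly through its AdSirt4 samples. With the replicate number as a block, 1 member was higher and 2 were lower (7.09% of all genes in either direction), and DESeq2 gave 0 members at an adjusted p under 0.05. The median log2 fold change of the 42 members was 0.02, as was that of all genes tested. Within the spread between these samples alone, the intervals of the main fit, without the replicate block, were narrow enough to bound most changes. For 41 of the 42 members the whole 95% interval of the fold change lay within 2-fold in either direction, and SLC25A34 was the exception.

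**Figure D2:**
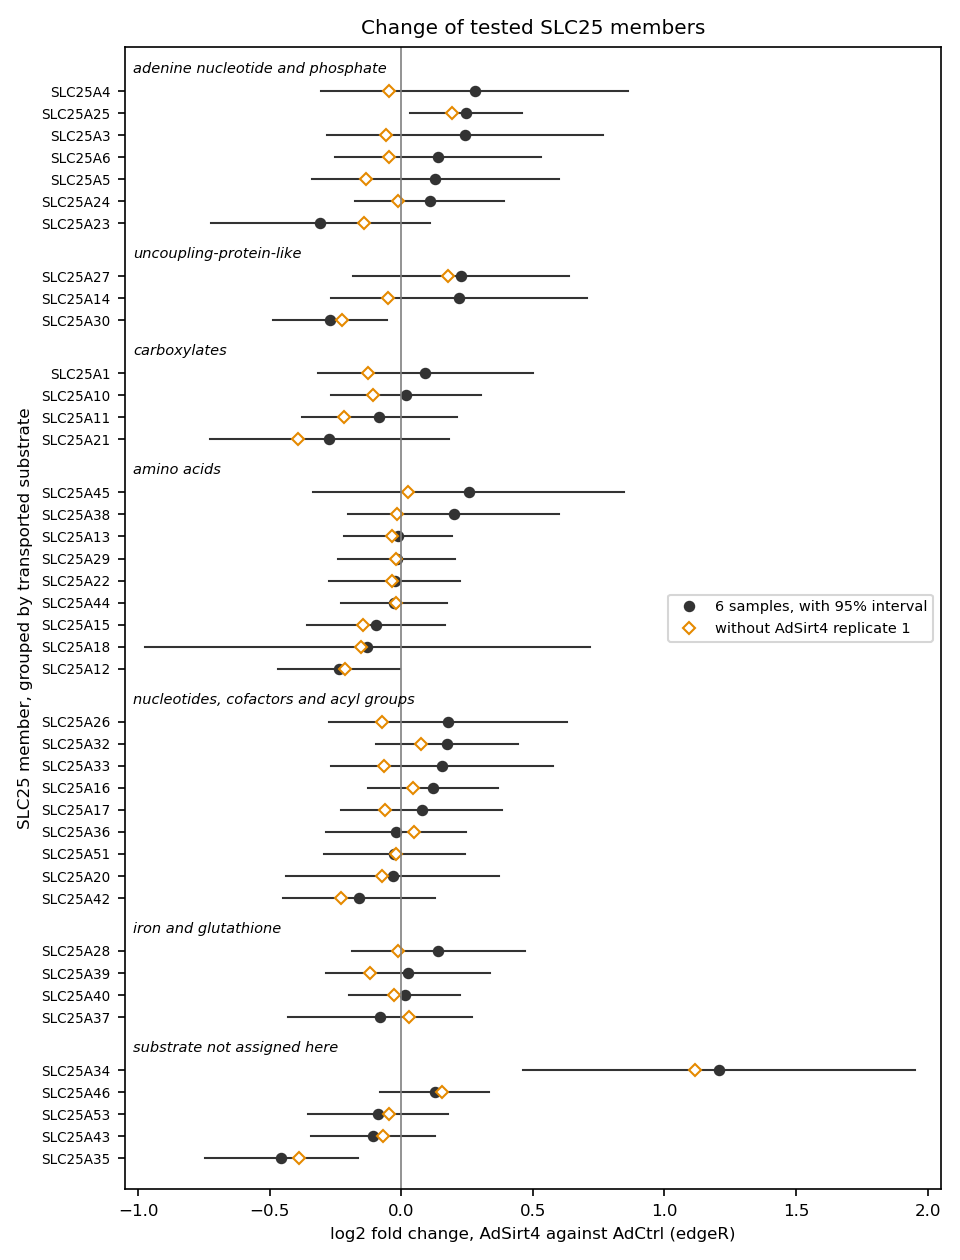
Log2 fold change of AdSirt4 against AdCtrl for 41 of the 42 tested members, with the 95% interval from edgeR (black), and the same value without AdSirt4 replicate 1 (open diamonds), grouped by transported substrate. Only SLC25A34 lies beyond 1, and the 3 translocases, SLC25A3 and SLC25A1 lie above 0 with all samples and below 0 without replicate 1.

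The groups did not overlap for 4 members that were higher in AdSirt4 (SLC25A25, SLC25A27, SLC25A34 and SLC25A46) and 5 that were lower (among them SLC25A12, SLC25A23, SLC25A30 and SLC25A35). Over all genes 9.54% were separated upward and 9.70% downward, so the 9.52% and 11.9% of members lie near the background. The members named here were chosen by this separation after their values were seen. An exact permutation test of 3 samples against 3 cannot go below a two-sided p of 0.1, which each of these 9 members reached.

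SLC25A34 and SLC25A35, close relatives whose substrates are not assigned here, had the highest and the lowest log2 fold change of the 42 tested members. SLC25A34 lies at chr1:15736258-15741392 on GRCh38 and SLC25A35 at chr17:8287763-8295400. SLC25A34 had 0.240, 0.212 and 0.156 CPM in AdCtrl and 0.539, 0.429 and 0.455 CPM in AdSirt4. All AdSirt4 samples were higher than all AdCtrl samples, at a level near the lowest that was tested. SLC25A34 passed the count filter mainly through these AdSirt4 samples, so its test is not independent of the filter. Its log2 fold change was 1.21 ± 0.32 (SE, 95% interval 0.46 to 1.95, unadjusted p 0.00633 and adjusted p = 0.507 by edgeR). The replicate block gave it an unadjusted p of 0.0139 (edgeR). SLC25A35 had 10.6, 10.6 and 9.08 CPM in AdCtrl and 6.62, 7.66 and 7.78 CPM in AdSirt4, lower in every AdSirt4 sample. Its log2 fold change was -0.46 ± 0.12 (SE, 95% interval -0.75 to -0.17, unadjusted p 0.00739 and adjusted p = 0.507 by edgeR). The replicate block gave it an unadjusted p of 0.0185 (edgeR). SLC25A34 made up 1.73%, 1.47% and 1.30% of the FPKM of the pair in AdCtrl and 5.75%, 4.05% and 4.56% in AdSirt4. This share was higher in all 3 AdSirt4 samples (two-sided exact permutation p = 0.1, adjusted p = 0.2 over the 6 shares computed). That follows from the separation of the 2 genes given above, so it is not independent support.

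Each of these genes overlaps another annotated gene. SLC25A35 shares its locus with RANGRF, a nuclear transport factor gene at chr17:8288670-8290087 (GRCh38.p14 annotation). RANGRF had 8.17, 7.55 and 7.26 CPM in AdCtrl and 14.3, 8.12 and 6.83 CPM in AdSirt4, with groups that overlapped. SLC25A34 overlaps the antisense gene SLC25A34-AS1, which had 0 counts in every sample. Whether the counting used strand is not given in the sources used here, so reads of overlapping genes cannot be told apart, and their part in these values was not tested.

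Among the carriers related to uncoupling proteins, SLC25A30 (KMCP1, a carrier described in kidney mitochondria, chr13:45393316-45434016) was the member with the smallest p. It had 83.5, 85.2 and 78.6 CPM in AdCtrl and 63.6, 72.2 and 69.1 CPM in AdSirt4, so every AdSirt4 sample lay below every AdCtrl sample. This is a change of -17.2%, with a log2 fold change of -0.27 ± 0.09 (SE, 95% interval -0.49 to -0.05, unadjusted p 0.0213 and adjusted p = 0.586 by edgeR). The replicate block gave SLC25A30 an unadjusted p of 0.0435 (edgeR). The antisense gene SLC25A30-AS1 in the same locus had 0 to 12 counts per sample, against at least 2477 for SLC25A30. SLC25A27 and SLC25A14, the brain-type members of this group, had mean levels of 1.76 and 11.6 CPM in AdCtrl and did not pass an unadjusted p under 0.05.

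The ATP-Mg carriers SLC25A23, SLC25A24 and SLC25A25 exchange ATP-Mg for phosphate and so set the adenine nucleotide content of the matrix, under control by calcium. SLC25A25 (chr9:128068232-128109245) had 36.7, 37.9 and 37.2 CPM in AdCtrl and 47.4, 42.1 and 43.2 CPM in AdSirt4. It was higher in every AdSirt4 sample by a mean of 18.6%, a log2 fold change of 0.25 ± 0.09 (SE, 95% interval 0.03 to 0.46, unadjusted p 0.0298 and adjusted p = 0.621 by edgeR). With the replicate block its unadjusted p became 0.0643 (edgeR). SLC25A23 was lower, at 80.0, 96.2 and 81.1 CPM in AdCtrl against 51.9, 79.4 and 76.4 CPM in AdSirt4, and its groups were separated by less than 1 CPM. Its log2 fold change was -0.31 (95% interval -0.73 to 0.11, unadjusted p 0.124 and adjusted p = 0.714 by edgeR). Without AdSirt4 replicate 1 it was -0.14. SLC25A25 made up 15.9%, 15.3% and 16.1% of the FPKM of the 3 carriers in AdCtrl and 19.3%, 18.3% and 18.4% in AdSirt4, a mean difference of 2.90 percentage points (two-sided exact permutation p = 0.1, adjusted p = 0.2 over the 6 shares). This share is not independent of the separations of SLC25A25 and SLC25A23 given above.

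The aspartate and glutamate carriers SLC25A12 (aralar) and SLC25A13 (citrin) are the calcium-sensing step of the malate-aspartate shuttle. SLC25A12 (chr2:171783405-171894244) had 32.6, 28.5 and 32 CPM in AdCtrl and 25.4, 26.3 and 27.3 CPM in AdSirt4. It was lower in every AdSirt4 sample, with a log2 fold change of -0.24 ± 0.10 (SE, 95% interval -0.47 to -0.01, unadjusted p 0.0453 and adjusted p = 0.634 by edgeR), and with the replicate block the unadjusted p was 0.0789. SLC25A13 had 105, 95.6 and 98.3 CPM in AdCtrl and 101, 96.8 and 97.7 CPM in AdSirt4. Its log2 fold change of -0.01 had a 95% interval of -0.22 to 0.19, and its groups overlapped throughout. SLC25A12 was therefore a smaller part of the FPKM of the pair in AdSirt4 (16.6%, 17.8% and 18.2%) than in AdCtrl (19.9%, 19.1% and 20.6%), with no overlap (two-sided exact permutation p = 0.1, adjusted p = 0.2 over the 6 shares). This share is not independent of the separation of SLC25A12 given above.

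The glutamate carriers SLC25A22 and SLC25A18 and the carnitine-acylcarnitine carrier SLC25A20 bear on substrates that known SIRT4 targets handle, glutamate and fatty acids. SLC25A22 had 17.6, 19.7 and 16.6 CPM in AdCtrl and 17.9, 16.7 and 18.4 CPM in AdSirt4. SLC25A18, which was near the count threshold, had 0.536, 0.518 and 0.331 CPM against 0.436, 0.290 and 0.541 CPM. SLC25A20 had 5.22, 3.86 and 5.04 CPM against 4.85, 5.01 and 3.96 CPM. The groups overlapped for all 3 genes. The log2 fold changes were -0.03 (95% interval -0.28 to 0.22) for SLC25A22, -0.13 (-0.97 to 0.72) for SLC25A18 and -0.03 (-0.44 to 0.37) for SLC25A20, and the interval of SLC25A18 still spans changes of nearly 2-fold. SLC25A18 made up 2.41% to 3.70% of the FPKM of the glutamate carriers in AdCtrl and 2.10% to 3.60% in AdSirt4.

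The differences of the most abundant carriers depended on AdSirt4 replicate 1. SLC25A5 had 380, 351 and 356 CPM in AdCtrl and 527, 338 and 323 CPM in AdSirt4 replicates 1, 2 and 3. SLC25A6 had 362, 343 and 330 CPM against 473, 357 and 312 CPM. SLC25A4 had 25.5, 22.1 and 19.6 CPM against 38.3, 23.2 and 20.2 CPM. In each translocase replicate 1 was above all AdCtrl samples while replicates 2 and 3 lay within or below their range. SLC25A3 had 560, 532 and 567 CPM in AdCtrl and 899, 553 and 510 CPM in AdSirt4. SLC25A1 had 170, 156 and 151 CPM against 216, 150 and 141 CPM. With all samples the log2 fold changes were 0.13 for SLC25A5, 0.14 for SLC25A6, 0.28 for SLC25A4, 0.24 for SLC25A3 and 0.09 for SLC25A1, with every 95% interval including 0. Without AdSirt4 replicate 1 they were -0.13, -0.05, -0.05, -0.06 and -0.13, so the direction of all 5 turned. The mix of translocases was less affected. SLC25A5 made up 53.3%, 52.6% and 54.0% of their FPKM in AdCtrl and 54.7%, 50.7% and 53.0% in AdSirt4 (two-sided exact permutation p = 0.8). SLC25A4 made up 0.879% to 1.06% in AdCtrl and 0.978% to 1.17% in AdSirt4 (two-sided exact permutation p = 0.4).

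**Figure D3:**
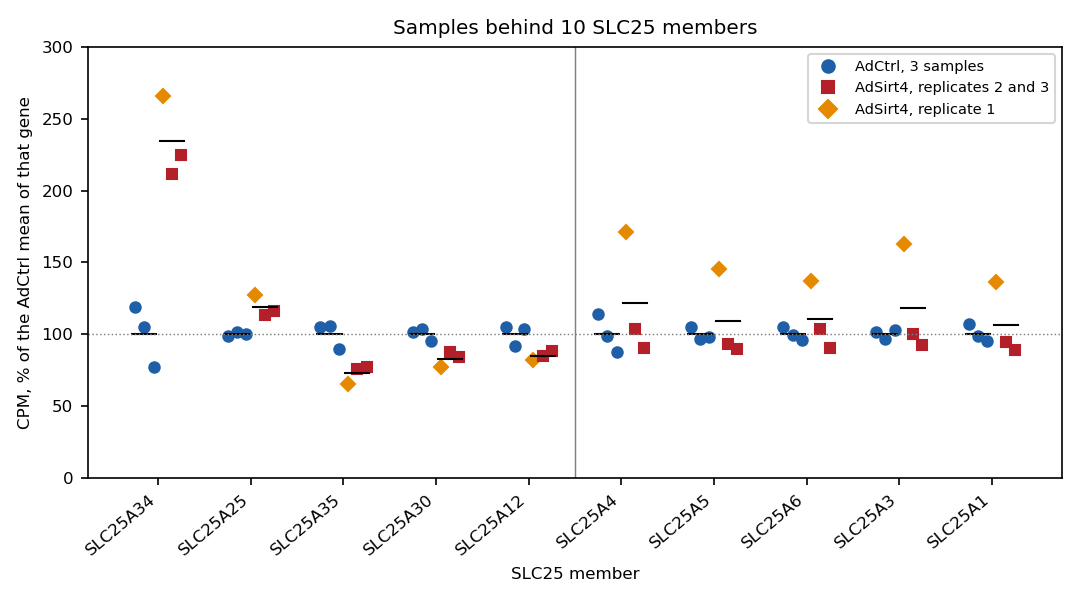
CPM of each sample as a percentage of the AdCtrl mean of the same gene, for the 5 members with an unadjusted p under 0.05 (left of the line) and 5 abundant or translocase members (right). Black bars are group means of 3 samples. On the left all AdSirt4 samples lie to the same side of AdCtrl, while on the right AdSirt4 replicate 1 alone lies above it.

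Replicate 1 stood apart across the family. Its tested members summed to 3683 CPM, against 2830 and 2794 CPM in AdSirt4 replicates 2 and 3 and 2973, 2886 and 2917 CPM in AdCtrl. SLC25A3, SLC25A5 and SLC25A6 together took 51.6% of its SLC25 counts and 41% to 44.1% in the other 5 libraries. It was the highest of the 6 samples for 22 of 42 members and the lowest for 8. The median coefficient of variation of a member was 5.85% in AdCtrl and 13.2% in AdSirt4, and it was 4.08% between AdSirt4 replicates 2 and 3. The shift moved with gene length. Among 19 members under 3 kb of implied length, 16 were higher in replicate 1 than in the mean of replicates 2 and 3, with a median log2 ratio of 0.39. Of all 42 members 31 were higher in replicate 1. So were the 2 members of 6 kb or more, with a median log2 ratio of 0.49. Across the 42 members Spearman's rho between this ratio and length was -0.38, a description over genes that share the same libraries, and it was -0.57 over 17850 genes. SLC25A3, whose implied length is long and whose coding part is short, lay above this trend, and SLC25A23 lay below it. The part of length in the group differences was not tested member by member.

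Without AdSirt4 replicate 1 more members were called, and all of those called were lower in AdSirt4. An adjusted p under 0.05 was then reached by 4 of 42 members (9.52%) and by 6.91% of 17943 genes, so the members' share was close to that of all genes. The 4, among them SLC25A30, SLC25A35 and SLC25A11, were all lower in AdSirt4. Keeping all samples and weighting each by its quality in limma voom gave 5 of 42 members, the same 4 and SLC25A34, against 8.60% of all genes. SLC25A34 passed the count filter mainly through its AdSirt4 samples, so its call is not independent of its difference. SLC25A11, the oxoglutarate-malate carrier and the partner of SLC25A12 and SLC25A13 in the malate-aspartate shuttle, had 37.9, 38.7 and 38.2 CPM against 42.5, 33.3 and 32.6 CPM. Its log2 fold change went from -0.08 (adjusted p = 0.847) to -0.22 (adjusted p = 0.0462, edgeR). For SLC25A30 and SLC25A35 the fold changes without replicate 1 were -0.22 and -0.39, with adjusted p = 0.0325 and adjusted p = 0.0433 (edgeR).

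In direction, 20 of 42 members (47.6%) were below 0 with all samples, as were 46.8% of all genes. Without AdSirt4 replicate 1, 33 of 42 members (78.6%) were below 0 against 50.4% of all genes, with a median log2 fold change of -0.05 against 0.00. By substrate these were all 4 carboxylate carriers, 8 of 9 amino acid carriers, 6 of 7 carriers of adenine nucleotides and phosphate, 7 of 10 carriers of nucleotides, cofactors and acyl groups, 3 of 4 carriers of iron and glutathione, 2 of 3 of the uncoupling-protein-like carriers and 3 of 5 without an assigned substrate. When the trend on gene length was instead removed from every library and all samples were kept, 22 of 42 members (52.4%) were below 0, against 46.8% of all genes. The median log2 fold change was then -0.01 against 0.02. With all samples kept and weighted by quality in limma voom, 30 of 42 members (71.4%) were below 0 against 49.8% of all genes, with a median of -0.05 against 0.00. The shift was not particular to the carriers. Among 22 other transport genes of the mitochondrial envelope, described below, 17 (77.3%) were below 0 without AdSirt4 replicate 1, and 72.7% with voom weights. Among the 16 carrier import genes these shares were 87.5% and 62.5%. The share of members that was lower thus depended on how AdSirt4 replicate 1 and the other libraries were weighted.

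The genes that bring carriers into the inner membrane were taken as a list of 16, all of them tested. Of these, 15 were above 0 and the median log2 fold change was 0.17 with all samples, while without AdSirt4 replicate 1 there were 2 above 0 and the median was -0.07. At an unadjusted p under 0.05 there was 1, TIMM10B, a small TIM chaperone of the intermembrane space, with 18.7, 21.2 and 17.3 CPM in AdCtrl and 23.9, 22.4 and 22.8 CPM in AdSirt4 (log2 fold change 0.27, adjusted p = 0.627, edgeR). This is 1 of 16 genes, against 7.77% of all genes, and with the replicate block the count was 0, with an unadjusted p of 0.0591 for TIMM10B. A second list held 23 other transport genes of the mitochondrial envelope, of which 22 were tested and UCP1 was not. In that list 3 of 22 had an unadjusted p under 0.05, against 7.77% of all genes, and the median log2 fold change was 0.03. With the replicate block 1 of the 3 remained, UCP3 (unadjusted p of 0.0271), while UCP2 had 0.0683 and MCU 0.0505. UCP3, an uncoupling protein homologue of the same family under another symbol, was higher, with 2.64, 3.20 and 2.31 CPM in AdCtrl and 3.88, 3.82 and 3.91 CPM in AdSirt4 (log2 fold change 0.51, adjusted p = 0.557, edgeR). UCP2 was lower, with 114, 109 and 103 CPM against 91.7, 98.9 and 86.2 CPM (log2 fold change -0.24, adjusted p = 0.634). MCU, the pore of the mitochondrial calcium uniporter, was lower, with 120, 120 and 119 CPM against 100, 106 and 94.3 CPM (log2 fold change -0.26, adjusted p = 0.599). None of the import or envelope genes passed an adjusted p under 0.05 by edgeR with all samples. With all samples weighted by quality in limma voom, 0 of 16 import and 3 of 22 envelope genes passed, against 8.60% of all genes. These were MPC1, UCP3 and MCU (adjusted p = 0.0049, 0.036 and 0.040, limma voom). Without AdSirt4 replicate 1, 2 of 22 passed, MPC1 and MCU (adjusted p = 0.0074 and 0.026, edgeR), against 6.91% of all genes.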

How the data were processed

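HK2 cells were sequenced as bulk poly-A RNA in 3 AdCtrl and 3 AdSirt4 samples. Per the labels the submitters' processing notes name fastp 0.21.0, HISAT2 2.1.0, StringTie 2.1.5, DESeq2 1.30.1 and hg38, without their roles. The authors deposited whole-number counts per gene without normalization, and a table of the same genes read here as FPKM, since for 16915 of 28227 genes the deposited FPKM implied the same length in all samples within 5%. For SLC25 members this held for 31 of 42. No deposited column was left unused. The study states that in vitro n means technical replicates, and p-values and intervals then cover the spread between these samples alone. The cell-line labels number the samples differently, while all titles name HK2.

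Genes with at least 10 counts in at least 3 samples were compared with edgeR 4.0.16 (TMM, robust quasi-likelihood test, R 4.3.3) with Benjamini-Hochberg adjustment at 0.05. Single genes and shares were compared with two-sided exact permutation tests on log2 CPM and on percentages of FPKM, for which the smallest p is 0.1. Members named with full values were those with an unadjusted p under 0.05, plus 11 carriers picked by role. Of the tested members, 1 enters the counts but is not reported here by name or in the plots by gene. Members and lists were chosen with earlier results of these data known. Positions of genes come from RefSeq (GRCh38.p14), in which all 48 members matched, and sequences from GENCODE release 29 (GRCh38). Alternatives were DESeq2 1.42.0, RLE scaling, filterByExpr, all genes with at least 1 count, the replicate block, removal of the length trend, limma 3.58.1 (voom with sample quality weights, and log2 FPKM), and each sample left out. The scripts were tested on simulated data. Replicates were no copies of each other, with a chi-square per gene of 9.84 to 232. Deviations from the group means correlated at 0.206, 0.151 and 0.250 across genes between samples with the same number and at -0.218 to 0.0553 between others. The numbers were therefore taken to pair the samples, though no source used here states a pairing. The main fit and the permutation tests do not use it, and values with the replicate block are given beside them. Figures were drawn with matplotlib 3.10.9 in Python 3.11.15.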

Additional observations from a re-analysis of the deposited data

How the results depend on the processing

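The count of members at an adjusted p under 0.05 was 0 with all samples and stayed 0 under every alternative except limma voom with sample quality weights, which gave 5, and the fit without AdSirt4 replicate 1, which gave 4. Leaving out each sample in turn gave 0 to 4 members at an adjusted p under 0.05, and at an unadjusted p under 0.05 it gave 1 to 3 members higher, 1 to 6 members lower, 0 to 2 import genes and 0 to 8 envelope genes, and the fit without AdSirt4 replicate 1 gave the upper end of each. In that fit 23.9% of all genes had an unadjusted p under 0.05, against 3.69% to 8.36% in the other fits that left out a sample. In the members higher at an unadjusted p under 0.05, 2 became 1 with all genes of at least 1 count, with the replicate block, and with limma on log2(FPKM + 1) with the block, on log2(FPKM + 0.1) or on a mean FPKM of at least 1. The members lower went from 3 to 5 with the length trend removed, with or without the replicate block, and to 7 with voom weights, while the share of all genes at this threshold, in either direction, went from 7.77% to 13.6% and 26.6%. The import genes went from 1 to 0 with the replicate block, on counts and on log2(FPKM + 1). The envelope genes went from 3 to 1 with the replicate block, and to 5 with the length trend removed (with or without the block) or with voom weights. Because the replicate numbers were taken to pair the samples, the blocked counts stand beside the results, and at an adjusted p under 0.05 the block changed no member's call. The median log2 fold change of the members ranged from -0.05 to 0.09 over the samples left out, and under no alternative did it move by more than the spread between replicates of 0.0736. Causes were not tested.

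Of 268 values of the 15 named members under an alternative, 20 changed direction, and SLC25A34, SLC25A35, SLC25A30, SLC25A25, SLC25A12 and SLC25A11 kept theirs throughout. Direction alone was kept in some of these. The unadjusted p was no longer under 0.05 in 10 alternatives for SLC25A12, 8 for SLC25A25 and 2 for SLC25A30. With the length trend removed SLC25A1 was at -0.014. With the block added it was at -0.015 and SLC25A5 at -0.0023. With voom weights SLC25A1 was at -0.094, SLC25A5 at -0.10, SLC25A3 at -0.011 and SLC25A20 at 0.0068. Over the samples left out the log2 fold changes ran from -0.048 to 0.45 for SLC25A4, -0.13 to 0.25 for SLC25A5, -0.048 to 0.26 for SLC25A6, -0.058 to 0.39 for SLC25A3, -0.13 to 0.20 for SLC25A1, -0.042 to 0.025 for SLC25A13, -0.38 to 0.10 for SLC25A18, -0.082 to 0.047 for SLC25A22 and -0.15 to 0.066 for SLC25A20. Depth limits SLC25A34 and SLC25A18, with 8 to 44 counts per sample, and the 6 untested members most.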

Other observations

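SLC25A25-AS1, a transcript named for its neighbour SLC25A25 that does not overlap it, was not among the members. It lies at chr9:128111171-128118734 (GRCh38.p14) and had 16.8, 22 and 22.7 CPM in AdCtrl against 17.9, 33.2 and 41.9 CPM in AdSirt4. The groups overlapped through AdSirt4 replicate 1, with a log2 fold change of 0.60 with all samples (adjusted p = 0.69, edgeR) and 0.87 without that replicate (adjusted p = 0.019, edgeR). It was named after its values were seen, and a relation to SLC25A25 was not tested.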
